A study of Mus musculus with 96 samples.

Results

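The ephrins, their Eph receptors, the semaphorins and the plexins were followed through 3 dissections of the mouse brain, 2 inbred strains and an acute antipsychotic treatment. All transcript clusters with a single gene symbol that starts with Epha, Ephb, Efna, Efnb, Sema or Plxn were taken, with 1 cluster per gene, the one with the highest mean. This gave 50 of the 18807 genes named on the arrays: 13 Eph receptors, 8 ephrins, 20 semaphorins and 9 plexins. The cluster that carries the symbols of both Mrpl43 and Sema4g, and the clusters of these families whose symbol the tables of the 2 arrays give differently, were not used, and Ephb2 was not analysed here.

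Ephrins and semaphorins are guidance cues that neurons and glia display or secrete, and Eph receptors and plexins read them at the growth cone and the synapse. Ephrins of the A class are held by a lipid anchor and bind mainly EphA receptors, those of the B class cross the membrane and bind mainly EphB receptors, and EphA4 binds both. Secreted semaphorins act mostly through neuropilins and plexins, whereas membrane-bound ones bind plexins directly, and in the adult brain several of these genes remain active in spines, myelinating glia and vessels.

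Male mice of 2 inbred strains were used, 8 of C57BL/6J (B6), the strain of the reference genome, and 8 of NOD/ShiLtJ (NOD), which is prone to autoimmune diabetes. All mice were 14 weeks old, and in each strain 4 received clozapine at 4 mg/kg into the peritoneum and 4 received vehicle (saline) with death 3 hours after the injection. From every animal, forebrain and hindbrain were cut from the same hemisphere and the opposite one was kept entire (whole brain), all without cerebellum and with the olfactory bulbs attached before dissection. RNA of the 48 samples was measured on 1.1ST arrays, used throughout, and again on 1.0ST arrays, which repeat the RNA and add no animals. Levels are log2 intensities, so a difference of 1 is a doubling, and they compare a gene between samples, not genes with each other.

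The dissections carried the markers of their labels. All 10 measured markers of telencephalic neurons were lower in hindbrain than forebrain and all 13 of brainstem neurons were higher, while the myelin list was higher in 10 of 10. Whole brain of NOD mouse DD656, and in part of B6 mouse BB707, lay toward hindbrain. Plxnd1 was 7.34 in the former against 8.27 to 8.76 in the other 7 NOD samples, and Sema3a was 7.54 in the latter against 8.08 to 8.57 in the other 7 B6 samples. The summed markers of cerebellum, which had been cut away, stood at a log2 of summed intensity of 12.75 to 13.77 in 4 hindbrain samples (BB701, DD658, DD676 and DD678, all clozapine-treated) against 11.14 to 12.11 in the other 12. Without these 4, 13 members were called higher and 20 lower in hindbrain than forebrain, against 16 and 21 with them. The calls over all 28310 transcripts fell as well, to 6687 higher and 4734 lower from 7778 and 5576. The part of these 4 samples in the hindbrain values was not tested.

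Of the 50 members, 8 had a mean level over the 48 samples below 6.52, the median over all 28310 clusters: Efna1 (6.15), Efna4 (5.06), Epha1 (4.32), Epha2 (5.10), Epha8 (5.94), Ephb4 (6.08), Sema3b (6.16) and Sema3g (5.76).

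The first question was how the members differ between hindbrain and forebrain of the same hemisphere. Of the 50, 21 were called lower in hindbrain and 16 higher, at a false discovery rate (FDR) below 0.05 in a limma fit over all transcripts. Over all 28310 transcripts, 19.7% were called lower and 27.5% higher, 47.2% in either direction. In this fit the members stood above the background on the forebrain side (42% of them) and near it on the hindbrain side (32%). The background of lower calls depended on the processing. It was 9208 of 28310 transcripts without surrogate variables, 10325 with unrefined ones, 9849 with each array centred on its median, and 2598 on the 1.0ST arrays. The 42% of members belongs to the fit with a background of 19.7%. Whether the members also stood above these other backgrounds is not decided here. Without mouse DD676 the higher count was 9, when 16.6% of all transcripts were called higher, and on the 1.0ST arrays it was 7, beside 10.1%. Among transcripts with 1 gene symbol it was 8 (background 22.7%) and among those with a mean above 5 it was 7 (24.4%). The values of forebrain and hindbrain did not overlap over 16 mice each for 17 members, against 9.04% of all transcripts. The median difference of the fit was -0.02 for the members and 0.02 for all transcripts. In bulk tissue, fewer cells of a type and less RNA per cell cannot be told apart. The fit includes 5 surrogate variables that take up part of the regional difference, so the mean paired difference within mice is given first and the fitted difference after it.

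**Figure D1:**
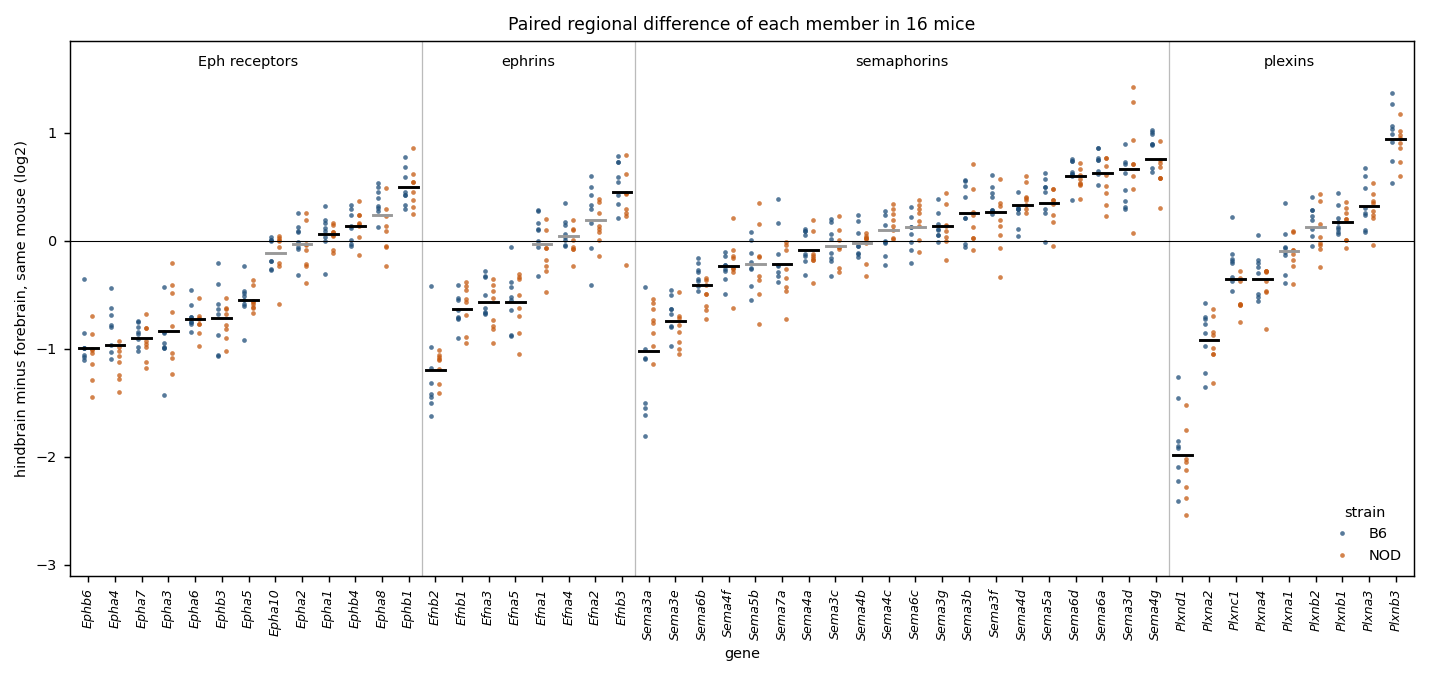
Each dot is the hindbrain level minus the forebrain level of 1 mouse (log2, vertical axis) for a gene (horizontal axis), in blue for B6 and orange for NOD, with 8 mice per strain. Bars are means over the 16 mice, black where the limma fit called the gene and grey where it did not, and they run from -1.99 for Plxnd1 to 0.94 for Plxnb3.

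Upstream sequences are shown for the 2 genes with the largest mean paired difference in each direction, among those with 1 entry, Plxnd1 and Efnb2 (lower in hindbrain) and Plxnb3 and Sema4g (higher), to set their start regions side by side. They are the 250 bases before the start given by the RefSeq entry, build GRCm38.p6, read 5′ to 3′ on the strand of the gene. The GC box (GGGCGG or its reverse complement CCGCCC) is in capitals. Only the Efnb2 stretch lies outside the annotated span of its gene. The others lie inside it, downstream of the outermost annotated start. That start is 115995339 for Plxnd1, 73756556 for Plxnb3 and 44988743 for Sema4g.
Plxnd1, chr6:115995006-115995255, minus strand: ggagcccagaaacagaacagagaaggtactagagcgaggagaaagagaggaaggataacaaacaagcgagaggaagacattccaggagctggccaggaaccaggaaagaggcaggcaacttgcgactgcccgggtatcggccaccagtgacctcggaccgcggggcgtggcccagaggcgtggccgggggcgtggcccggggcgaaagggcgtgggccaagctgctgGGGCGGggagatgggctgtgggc
Efnb2, chr8:8661243-8661492, minus strand: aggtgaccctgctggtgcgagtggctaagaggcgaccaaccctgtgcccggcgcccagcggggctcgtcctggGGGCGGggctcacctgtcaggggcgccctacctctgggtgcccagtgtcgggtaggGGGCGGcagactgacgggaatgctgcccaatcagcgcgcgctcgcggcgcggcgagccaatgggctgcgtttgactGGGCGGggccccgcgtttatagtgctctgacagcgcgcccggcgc
Plxnb3, chrX:73756853-73757102, plus strand: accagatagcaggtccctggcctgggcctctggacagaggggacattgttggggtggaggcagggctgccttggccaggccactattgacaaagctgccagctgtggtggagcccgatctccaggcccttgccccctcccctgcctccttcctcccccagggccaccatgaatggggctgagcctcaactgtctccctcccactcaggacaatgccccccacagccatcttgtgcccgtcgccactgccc
Sema4g, chr19:44989094-44989343, plus strand: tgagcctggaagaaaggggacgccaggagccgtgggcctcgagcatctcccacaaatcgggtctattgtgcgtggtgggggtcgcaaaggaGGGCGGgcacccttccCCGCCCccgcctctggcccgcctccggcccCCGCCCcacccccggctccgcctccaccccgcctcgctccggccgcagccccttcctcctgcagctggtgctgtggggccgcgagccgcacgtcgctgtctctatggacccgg
The Plxnb3 stretch held no GC box and 3 CpG dinucleotides. Plxnd1 held 1 GC box and 16 CpG, Efnb2 held 3 boxes and 27 CpG, and Sema4g held 3 boxes and 24 CpG. Of all 32851 upstream stretches of this length, 32.7% held a GC box on either strand, and of the 58 stretches of the 44 members with an entry, 75.9% did. The E-box CANNTG was in 66.2% of all stretches and 48.3% of those of members. A match describes these letters and is not a binding site.

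Eph receptors lay mostly on the forebrain side. Of 13, 7 were called lower in hindbrain and 3 higher, and 5 of the 9 EphA genes were among the lower ones. Epha4 lay between 10.46 and 10.79 (median 10.57) in forebrain and between 9.12 and 10.05 (median 9.60) in hindbrain, without overlap. Epha4, a receptor for both ephrin classes that is prominent at hippocampal and cortical synapses, had a mean paired difference of -0.97 ± 0.25 (SD, n = 16 mice), and the fit gave -0.85 (SE 0.06, FDR 1.2e-16). Epha7 lay between 9.58 and 10.02 (median 9.85) in forebrain and between 8.56 and 9.31 (median 8.92) in hindbrain, again without overlap. Epha7, a receptor of ephrin-A ligands in cortical and thalamocortical patterning, was lower in all 16 mice, with a mean paired difference of -0.90 ± 0.14 (SD, n = 16 mice), with a fitted difference of -0.84 (SE 0.08, FDR 3.3e-12). Epha3 lay between 7.13 and 7.64 (median 7.37) in forebrain and between 6.17 and 7.16 (median 6.57) in hindbrain, so the regions overlapped in the extremes. Epha3 was nevertheless lower in hindbrain in 16 of 16 mice, with a mean paired difference of -0.84 ± 0.32 (SD, n = 16 mice), with -0.98 (SE 0.08, FDR 2.1e-14) in the fit.

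Ephb6, a receptor whose kinase domain is inactive, had the largest paired difference of the receptors. Ephb6 lay between 8.31 and 9.04 (median 8.96) in forebrain and between 7.33 and 8.13 (median 7.96) in hindbrain, without overlap. The mean paired difference was -0.996 ± 0.24 (SD, n = 16 mice), or 1.99-fold lower, and the fitted one -0.78 (SE 0.07, FDR 4.7e-13). Epha6, Ephb3 and Epha5 were also lower in all 16 mice, with mean paired differences of -0.73, -0.72 and -0.55. Ephb1, a synaptic receptor of ephrin-B ligands, went the other way. Ephb1 lay between 7.31 and 7.99 (median 7.78) in forebrain and between 8.01 and 8.504 (median 8.29) in hindbrain, without overlap, and the paired difference was 0.49 ± 0.18 (SD, n = 16 mice), with 0.45 (SE 0.05, FDR 6.0e-11) in the fit. A dimmer cluster of Ephb1 (mean 6.37 against 8.00) was not used for the counts. Ephb4, the vascular receptor of ephrin-B2, and Epha1 were called higher by small fitted differences of 0.14 and 0.13, and Epha2, Epha8 and Epha10 were not called.

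Among ephrins, 4 of 8 were called lower in hindbrain and 1 higher. Efnb2 lay between 8.21 and 8.73 (median 8.51) in forebrain and between 6.99 and 7.88 (median 7.30) in hindbrain. Efnb2, a transmembrane ligand of arteries and of neurons, thus did not overlap between the regions, and had a mean paired difference of -1.20 ± 0.28 (SD, n = 16 mice), or 2.29-fold lower, with -0.96 (SE 0.08, FDR 2.1e-13) in the fit. Efnb1, Efna3 and Efna5 were lower in 16 of 16 mice as well, with mean paired differences of -0.63, -0.57 and -0.57, and the regions did not overlap for Efnb1 and Efna3. Efnb3, the ligand of the spinal midline that repels corticospinal axons through EphA4, was the one ephrin called higher. Efnb3 lay between 8.75 and 9.39 (median 9.09) in forebrain and between 9.16 and 9.73 (median 9.52) in hindbrain, and it was higher in hindbrain in 15 of 16 mice, by 0.45 ± 0.27 (SD, n = 16 mice), with 0.36 (SE 0.05, FDR 1.3e-07) in the fit. On the 1.0ST arrays the fitted difference of Efnb3 was 0.13, FDR 0.092, and with only transcripts above a mean of 5 it was 0.10, FDR 0.14. The mean paired difference of Efnb3 on the 1.0ST arrays was 0.37, with hindbrain higher in 15 of 16 mice. Efna1, Efna2 and Efna4 were not called, with fitted differences of -0.00, 0.09 and 0.10.

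Semaphorins split in both directions, with 9 of 20 called higher in hindbrain and 6 lower. Sema3a, a secreted repellent of cortical axons, had the largest difference on the forebrain side. Sema3a lay between 8.02 and 8.79 (median 8.30) in forebrain and between 6.90 and 7.86 (median 7.36) in hindbrain, without overlap. The mean paired difference was -1.02 ± 0.42 (SD, n = 16 mice) and the fitted one -0.95 (SE 0.11, FDR 2.4e-10), with the widest spread over mice of any member: the paired mean was -1.26 ± 0.44 (SD, n = 8 mice) in B6 and -0.78 ± 0.21 (SD, n = 8 mice) in NOD. Sema3a was not called in the test, given below, of whether the regional difference depends on the strain. Sema3e, which binds plexin D1 without a neuropilin, was lower in 16 of 16 mice, at -0.75 ± 0.18 (SD, n = 16 mice) without overlap. Sema6b was lower in 16 of 16 mice, at -0.41 ± 0.15 (SD, n = 16 mice), and Sema4f, Sema7a and Sema4a were called lower with fitted differences between -0.26 and -0.12.

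Of the 5 semaphorins with the largest differences on the hindbrain side, 4 are membrane-bound, as are most of the 20 measured. Over all calls, 4 of the 7 secreted class 3 genes were higher in hindbrain and 2 lower. Of the membrane-bound classes, class 4 had 2 higher and 2 lower of 6, and class 5 had 1 higher and 0 lower of 2. Class 6 had 2 higher and 1 lower of 4, and the 1 gene of class 7 was lower. Sema4g lay between 6.39 and 7.04 (median 6.82) in forebrain and between 7.12 and 7.92 (median 7.56) in hindbrain, without overlap. Sema4g, a transmembrane class 4 semaphorin, was higher in every mouse, by 0.76 ± 0.20 (SD, n = 16 mice), with 0.64 (SE 0.05, FDR 8.6e-15) in the fit. Sema6a lay between 9.14 and 9.61 (median 9.37) in forebrain and between 9.81 and 10.39 (median 10.01) in hindbrain. Sema6a, a transmembrane ligand of plexins A2 and A4 that oligodendrocytes and granule cell precursors carry, was higher by 0.63 ± 0.18 (SD, n = 16 mice), with 0.56 (SE 0.06, FDR 1.5e-11) in the fit. Sema6d lay between 9.60 and 10.14 (median 9.85) in forebrain and between 10.22 and 10.71 (median 10.48) in hindbrain. Sema6d, a ligand of plexin A1, was higher by 0.60 ± 0.11 (SD, n = 16 mice), with 0.44 (SE 0.05, FDR 3.2e-09) in the fit, and neither Sema6a nor Sema6d overlapped between the regions.

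Sema3d, a secreted class 3 cue, was higher in all 16 mice with a wider spread. Sema3d lay between 6.08 and 7.02 (median 6.59) in forebrain and between 6.92 and 7.50 (median 7.26) in hindbrain, which overlap slightly. Its mean paired difference was 0.66 ± 0.35 (SD, n = 16 mice) and the fitted one 0.48 (SE 0.07, FDR 1.6e-07). Sema5a, a transmembrane cue with thrombospondin repeats, was higher in 14 of 16 mice. Sema5a lay between 9.06 and 9.68 (median 9.34) in forebrain and between 9.37 and 9.95 (median 9.67) in hindbrain, with a paired difference of 0.35 ± 0.19 (SD, n = 16 mice) and 0.28 (SE 0.06, FDR 3.6e-05) in the fit. The fitted difference of Sema5a was 0.03, FDR 0.52 on the 1.0ST arrays and was not called without mouse DD676 (0.06, FDR 0.33). The mean paired difference of Sema5a on the 1.0ST arrays was 0.35, with hindbrain higher in 16 of 16 mice. Sema4d, a class 4 ligand of plexin B1 made by oligodendrocytes, was higher in 16 of 16 mice by 0.33 ± 0.14 (SD, n = 16 mice), and Sema3f, Sema3b and Sema3g were called higher with fitted differences of 0.23, 0.20 and 0.11. Sema3c, Sema4b, Sema4c, Sema5b and Sema6c were not called.

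Plexins held the largest difference in each direction. Plxnd1 lay between 8.62 and 9.28 (median 8.93) in forebrain and between 6.44 and 7.58 (median 6.89) in hindbrain, with a wide gap between the regions. Plxnd1, the receptor of semaphorin 3E on endothelium and on cortical and striatal neurons, was lower in hindbrain in every mouse, at -1.99 ± 0.36 (SD, n = 16 mice), or 3.96-fold lower, with -1.70 (SE 0.14, FDR 2.4e-14) in the fit. Plxna2 lay between 9.64 and 10.03 (median 9.93) in forebrain and between 8.58 and 9.40 (median 9.00) in hindbrain, also without overlap. Plxna2, a receptor of class 6 semaphorins and, with neuropilins, of class 3 ones, had a mean paired difference of -0.92 ± 0.24 (SD, n = 16 mice), with -0.69 (SE 0.05, FDR 4.1e-16) in the fit. Plxnc1, the receptor of semaphorin 7A, and Plxna4 were lower in 15 of 16 mice, each with a mean of -0.36.

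Plxnb3, a receptor of semaphorin 5A found in oligodendrocytes, had the opposite order. Plxnb3 lay between 7.37 and 8.02 (median 7.78) in forebrain and between 8.41 and 9.07 (median 8.69) in hindbrain, without overlap. It was higher in hindbrain in 16 of 16 mice, with a mean paired difference of 0.94 ± 0.22 (SD, n = 16 mice), or 1.92-fold higher, with 0.82 (SE 0.05, FDR 4.5e-17) in the fit. Plxna3 and Plxnb1 were higher in 15 of 16 mice, by 0.32 ± 0.19 (SD, n = 16 mice) and 0.17 ± 0.14 (SD, n = 16 mice). Plxna1 and Plxnb2 were not called, and the Plxnb2 difference was 0.13 between paired samples and -0.00 in the fit.

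**Figure D2:**
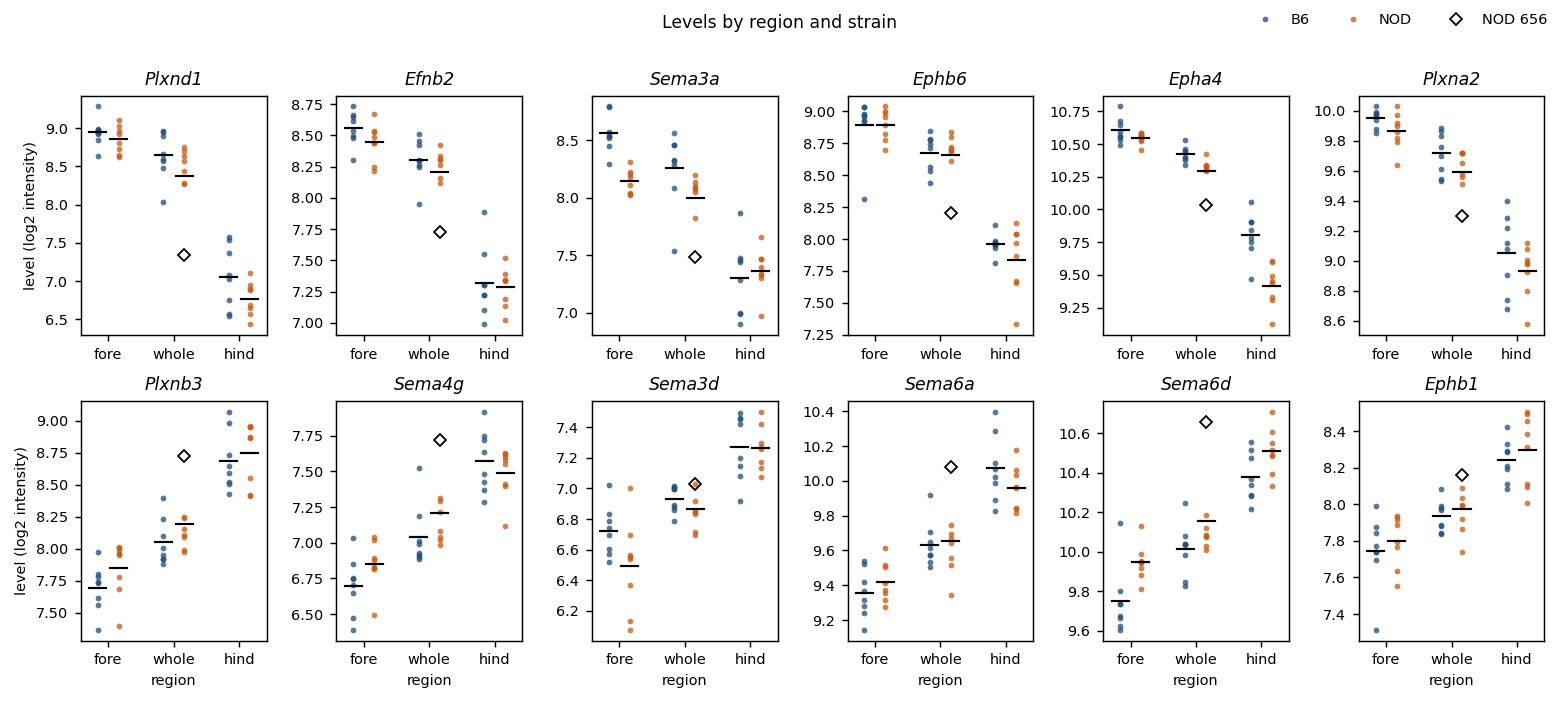
Level (log2 intensity, vertical axis) in forebrain, whole brain and hindbrain (horizontal axis) of the 6 named genes with the largest paired difference on each side, as 1 dot per sample, blue for B6 and orange for NOD, with bars at group means (n = 8). The open diamond is whole brain of NOD mouse DD656, which lies toward the hindbrain values, at 7.34 for Plxnd1 against 8.27 to 8.76 in the other 7 NOD samples.

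Ligands and receptors known to bind each other were then set side by side, as pairs chosen with these values known. Sema3e and its receptor Plxnd1 were both lower in hindbrain, with fitted differences of -0.68 and -1.70. Sema7a and Plxnc1 were both lower (-0.20 and -0.32). Sema4d and Plxnb1 were both higher (0.24 and 0.16), and so were Sema5a and Plxnb3 (0.28 and 0.82). Sema6a was higher where its receptors Plxna2 and Plxna4 were lower (0.56 against -0.69 and -0.26). Efnb3 was higher and its receptor Epha4 lower (0.36 and -0.85), whereas Efnb2 was lower together with Epha4. These values describe tissue levels and do not place ligand and receptor in the same or in neighbouring cells.

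Markers of several cell types moved with the regions. The summed level of the 10 measured myelin markers (log2 of summed intensity) ran from 13.10 to 13.54 in B6 forebrain and 13.24 to 13.58 in NOD forebrain to 13.99 to 14.35 in NOD hindbrain, with B6 hindbrain reaching 14.30, with a median fitted difference of 0.76. Endothelial and mural markers were called higher in hindbrain in 9 of 11 with a median of 0.21, the direction opposite to Plxnd1 and Efnb2. Markers of telencephalic neurons had a median of -2.32, and their summed level was 13.07 to 13.38 in B6 forebrain against 10.24 to 11.61 in B6 hindbrain. The part of cell composition in the members' differences was not tested.

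Of 49 measured genes that act beside these families, as co-receptors, cleaving enzymes or intracellular effectors, 20 were called lower in hindbrain and 20 higher, with a median fitted difference of -0.03. The lowest were Ngef (-1.44), the exchange factor ephexin that EphA4 activates, Mical2 (-1.28), an enzyme of the family that oxidises actin after plexin activation, and Kalrn (-1.03), an exchange factor of dendritic spines. The highest were Vav3 (1.27), an exchange factor recruited by Eph receptors, Limk1 (0.74), the kinase of cofilin, and Dpysl3 (0.65), a collapsin response mediator.

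On the 1.0ST arrays, run from the same RNA, the mean paired difference had the same sign for 34 of the 37 called members, the exceptions being Epha1, Sema3g and Sema4a, whose 1.0ST differences were -0.03, -0.02 and 0.01. The Plxnd1 difference was -1.60 there and the Plxnb3 difference 0.81. In the fit of these arrays, 18 members were called lower and 7 higher.

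**Figure D3:**
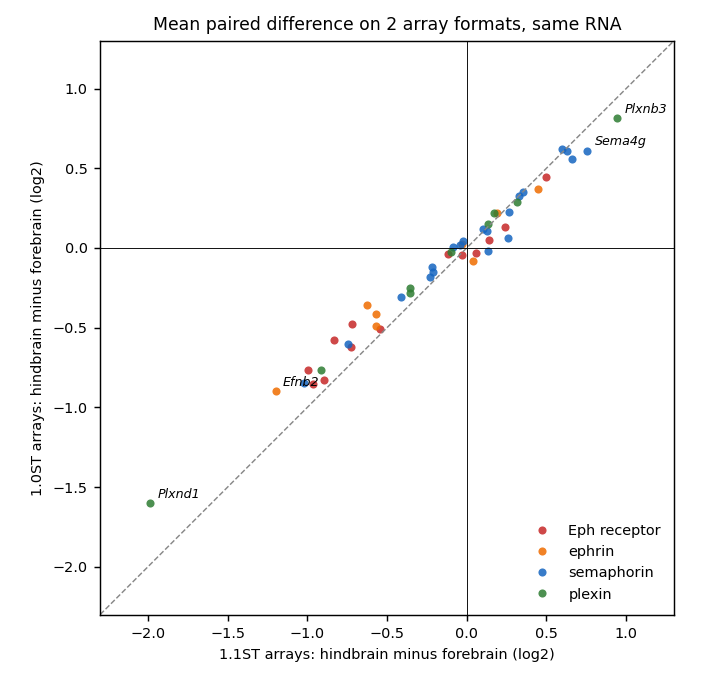
Mean paired difference, hindbrain minus forebrain (log2, n = 16 mice), of the 50 genes, with the 1.1ST value along the horizontal axis and the 1.0ST value up the vertical one, coloured by family, with a dashed line where both are equal. Plxnd1 lies at -1.99 and -1.60 and Plxnb3 at 0.94 and 0.81, closer to 0 on the 1.0ST arrays.

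The next question was what the intact hemisphere shows of these differences. Whole brain lay between forebrain and hindbrain for 45 of the 50 members by group means, and for all 16 of the named ones, at 0.197 to 0.499 of the distance from forebrain to hindbrain (median 0.322). The intact hemisphere holds both parts, and the 16 were picked for large differences, so this order was nearly given in advance. The distance is on the log2 scale and is not a share of tissue. The share of all transcripts that lay between was not computed. Between whole brain and forebrain 19 members were called (38%), against 14.4% of all transcripts, 9 higher and 10 lower in whole brain. Sema4g lay between 6.89 and 7.72 (median 7.03) in whole brain, above its forebrain median of 6.82, with a fitted difference of 0.31 (SE 0.04, FDR 3.6e-08). Plxnb3 lay between 7.88 and 8.73 (median 8.10), with 0.30 (SE 0.04, FDR 3.6e-07). Sema6a lay between 9.34 and 10.08 (median 9.63), with 0.24 (SE 0.04, FDR 3.5e-05), and had 0.15, FDR 0.064 in the fit of the 1.0ST arrays. The mean paired difference of Sema6a on those arrays was 0.28, with whole brain higher in 16 of 16 mice.

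On the other side, Epha3 lay between 6.85 and 7.53 (median 7.17) in whole brain, with -0.27 (SE 0.06, FDR 7.8e-04), and was not called without mouse DD678 (-0.19, FDR 0.080). Plxnd1 lay between 7.34 and 8.96 (median 8.59), with -0.27 (SE 0.10, FDR 0.049), close to the threshold. It was not called without any 1 of BB687, BB701, BB703, BB707, BB708, DD657, DD658, DD659, DD675, DD676, DD677 and DD678 (-0.28 to -0.06, FDR 0.056 to 0.64), and with the mouse as a fixed block the paired fit gave -0.24, FDR 0.12. The count of 19 fell to 4 without mouse DD676, where 3.71% of all transcripts were called, and to 5 on the 1.0ST arrays, where 1.65% were. It fell to 7 among transcripts with 1 gene symbol (background 5.75%) and to 2 among those with a mean above 5 (4.41%), and rose to 33 with surrogate variables that were not refined (31.4%). Without the whole brain samples of DD656 and BB707 it was 17.

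The strains were compared within each region. Forebrain had 14 of the 50 members called (28%), against 17.7% of all transcripts. Whole brain had 12 (24%), against 18.0%, and hindbrain 11 (22%), against 20.4%. Without surrogate variables the members were below the background instead: 4 of 50 were called in forebrain against 3315 of 28310 transcripts (12%), 3 in whole brain against 3034 of 28310 transcripts (11%), and 6 in hindbrain against 4863 of 28310 transcripts (17%). In vehicle-treated mice alone 10 were called in forebrain, beside 3348 of 28310 transcripts (12%), 6 in whole brain, beside 3321 of 28310 transcripts (12%), and 6 in hindbrain, beside 3961 of 28310 transcripts (14%). The whole brain count was 7 without BB702, beside 4338 of 28310 transcripts (15%), and 5 without DD656, beside 4316 of 28310 transcripts (15%). The values of the strains did not fully separate on the 1.1ST arrays for any member in any region, whereas they did for 3.49% of transcripts in forebrain, 3.88% in hindbrain and 3.29% in whole brain. On the 1.0ST arrays they separated for Plxnb1 in whole brain (NOD mean 10.24, B6 mean 10.05, n = 8 mice each). In all, 24 members were called in at least 1 region, of which Plxnb1 and Plxnb3 in all 3. The share of all transcripts called in at least 1 region, or in all 3, was not computed, so these counts have no background. No Eph receptor was called in forebrain, while 4 of 9 plexins and 3 of 8 ephrins were called higher in NOD there, beside 2542 of 28310 transcripts.

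All 4 members called lower in NOD forebrain were semaphorins. Sema3a in forebrain lay between 8.29 and 8.79 (median 8.54) in B6 and between 8.02 and 8.31 (median 8.15) in NOD, so the strains met only at the edge of their ranges. The means differed by -0.42 (NOD minus B6, n = 8 mice per strain), and the fitted difference was -0.42 (SE 0.11, FDR 0.0021) in forebrain, -0.28 (SE 0.10, FDR 0.040) in whole brain and -0.00 (SE 0.11, FDR 0.63) in hindbrain. The whole brain call was lost without any 1 of BB686, BB702, BB703, BB708, DD656, DD675, DD677 and DD678 (-0.27 to -0.22, FDR 0.052 to 0.15). Sema5b in forebrain lay between 6.95 and 7.49 (median 7.19) in B6 and between 6.57 and 7.14 (median 6.92) in NOD, with overlap. For Sema5b, a transmembrane cue of class 5, the fitted difference was -0.30 (SE 0.08, FDR 0.0057) in forebrain, -0.22 (SE 0.08, FDR 0.041) in whole brain and -0.20 (SE 0.09, FDR 0.071) in hindbrain, and the forebrain call was lost without DD675 (-0.19, FDR 0.088), the whole brain call without any 1 of BB686, BB702, DD656, DD677 and DD678 (-0.22 to -0.20, FDR 0.053 to 0.084).

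Sema3d in forebrain lay between 6.52 and 7.02 (median 6.72) in B6 and between 6.08 and 7.004 (median 6.54) in NOD, with the NOD values spanning most of the B6 range. The fitted difference of Sema3d was -0.22 (SE 0.07, FDR 0.018) in forebrain, and the call was lost without any 1 of BB686, BB701 and DD659 (-0.20 to -0.16, FDR 0.058 to 0.066). In hindbrain it was 0.04 (SE 0.08, FDR 0.52). The other semaphorin called lower in NOD forebrain was Sema3c (-0.15), and Sema3e, a ligand of plexin D1, was called lower in NOD whole brain (-0.23) and hindbrain (-0.20).

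On the NOD side, Efna1, an inducible ephrin of the A class, had the largest difference in forebrain. Efna1 in forebrain lay between 5.83 and 6.43 (median 6.04) in B6 and between 6.04 and 6.45 (median 6.34) in NOD, with overlap. The fitted difference was 0.30 (SE 0.07, FDR 0.0019) in forebrain, 0.25 (SE 0.07, FDR 0.0075) in whole brain and 0.09 (SE 0.08, FDR 0.32) in hindbrain. In vehicle-treated mice alone, with 4 mice per strain, the forebrain value was 0.24, FDR 0.093. Sema4g in forebrain lay between 6.39 and 7.03 (median 6.72) in B6 and between 6.50 and 7.04 (median 6.86) in NOD, an overlap over most of the range. Sema4g differed by 0.20 (SE 0.05, FDR 0.0012) in the forebrain fit, but without surrogate variables the value was 0.15, FDR 0.29. Plxnb3 in forebrain lay between 7.37 and 7.98 (median 7.74) in B6 and between 7.40 and 8.02 (median 7.95) in NOD, nearly the same range with a higher median. Plxnb3 differed by 0.20 (SE 0.05, FDR 0.0039) in forebrain, 0.17 (SE 0.05, FDR 0.011) in whole brain and 0.17 (SE 0.06, FDR 0.014) in hindbrain, and without surrogate variables the forebrain value was 0.15, FDR 0.30. The whole brain call of Plxnb3 was lost without any 1 of BB686, BB702 and DD656 (0.12 to 0.14, FDR 0.057 to 0.099) and the hindbrain call without DD675 (0.10, FDR 0.16). In hindbrain the strain means of Plxnb3 differed by 0.06, with an SD of 0.24 in NOD and 0.23 in B6, below the fitted 0.17. Of the 10 measured myelin markers, 3 were called higher in NOD forebrain and 5 in NOD hindbrain, and none lower. Their part in the values of Sema4g and Plxnb3 was not tested.

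**Figure D4:**
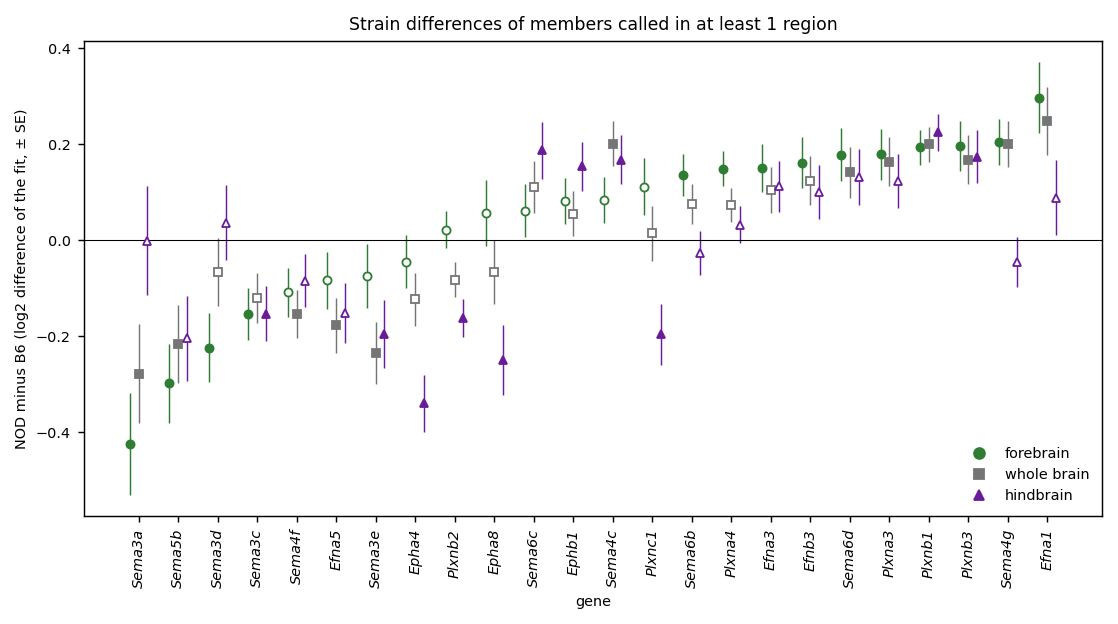
Fitted difference NOD minus B6 (log2, vertical axis, bars of 1 SE) in forebrain, whole brain and hindbrain for the 24 genes called in at least 1 region (horizontal axis), with filled symbols where the call was made and open ones where it was not. The forebrain values run from -0.42 for Sema3a to 0.30 for Efna1, and Plxnb1 and Plxnb3 lie above 0 in all 3 regions.

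Plxnb1, the receptor of semaphorin 4D, was called in every region, with 0.19 (SE 0.04, FDR 7.0e-05) in forebrain, 0.20 (SE 0.04, FDR 2.6e-05) in whole brain and 0.22 (SE 0.04, FDR 1.7e-05) in hindbrain. In hindbrain the largest difference was that of Epha4, at -0.34 (SE 0.06, FDR 1.8e-05), against -0.04 (SE 0.06, FDR 0.45) in forebrain. Of the 49 partner genes, 7 were called higher and 4 lower in NOD forebrain, among them Gipc1 (0.41), an adaptor of neuropilin 1, and Met (0.34), a receptor tyrosine kinase that couples to plexin B1, and Mmp2 (0.28), a protease, on the NOD side. On the B6 side stood Cd72 (-0.55), a dim transcript (mean level 3.88) that encodes a lymphocyte receptor of semaphorin 4D, Rras (-0.18), the small GTPase that plexins inactivate, and Rasa1 (-0.16), a GTPase-activating protein that docks to EphB receptors.

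Whether the regional difference depends on the strain was tested as an interaction. For hindbrain minus forebrain 4 members were called, against 2.29% of all transcripts, and for whole brain minus forebrain none was, and 0.00% of all transcripts were, where 1582 transcripts had an unadjusted limma p below 0.05 and the mixed model called 0. Epha4 in hindbrain lay between 9.47 and 10.05 (median 9.81) in B6 and between 9.12 and 9.61 (median 9.44) in NOD, with a narrow overlap. The hindbrain minus forebrain difference of Epha4 was -0.80 ± 0.22 (SD, n = 8 mice) in B6 and -1.13 ± 0.16 (SD, n = 8 mice) in NOD, and the strains differed by -0.30 (SE 0.08, FDR 0.026). Epha4 lost the call without any 1 of BB686 and DD659 (-0.30 to -0.27, FDR 0.054 to 0.092). Plxnc1 in hindbrain lay between 8.92 and 9.45 (median 9.31) in B6 and between 8.90 and 9.11 (median 8.98) in NOD, so the low B6 samples lay among the NOD ones. Plxnc1 had differences of -0.20 ± 0.21 (SD, n = 8 mice) in B6 and -0.51 ± 0.16 (SD, n = 8 mice) in NOD, and the strains differed by -0.31 (SE 0.08, FDR 0.029). Plxnc1 lost the call without any 1 of BB685, BB686, DD658, DD659 and DD677 (-0.30 to -0.25, FDR 0.057 to 0.11), and on the 1.0ST arrays its value was -0.22, FDR 0.058. Most markers of telencephalic neurons lay on the same side: the interaction had a median of -0.29 over the 10 measured, with 9 below 0 and 1 called, and 3 of 10 were called lower in NOD hindbrain. Their part in the values of Epha4 and Plxnc1 was not tested.

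The hindbrain minus forebrain difference of Sema4g and Plxnb2 was also lower in NOD than in B6. Sema4g had differences of 0.87 ± 0.15 (SD, n = 8 mice) in B6 and 0.64 ± 0.18 (SD, n = 8 mice) in NOD, and the strains differed by -0.25 (SE 0.07, FDR 0.032). Plxnb2, a broadly expressed receptor of class 4 semaphorins, had 0.19 ± 0.15 (SD, n = 8 mice) in B6 and 0.08 ± 0.23 (SD, n = 8 mice) in NOD, and the strains differed by -0.18 (SE 0.05, FDR 0.046). With the mouse as a fixed block, the paired fit gave -0.18, FDR 0.099 for Plxnb2. Without the 4 hindbrain samples with cerebellar markers, Sema4g had -0.22, FDR 0.061 and Plxnb2 -0.15, FDR 0.17. When each mouse was left out in turn, the Sema4g call held in the fits without BB701, DD659 and DD676 and in no other (otherwise -0.27 to -0.19, FDR 0.054 to 0.12) and the Plxnb2 call in those without BB685, BB703 and DD659 (otherwise -0.20 to -0.02, FDR 0.055 to 0.67), the Plxnb2 value being closest to 0 without DD675. The count of 4 was 0 without BB686, 1 without DD658 or DD677, and 2 without BB687, BB702, BB707, DD656, DD659 or DD678.

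**Figure D5:**
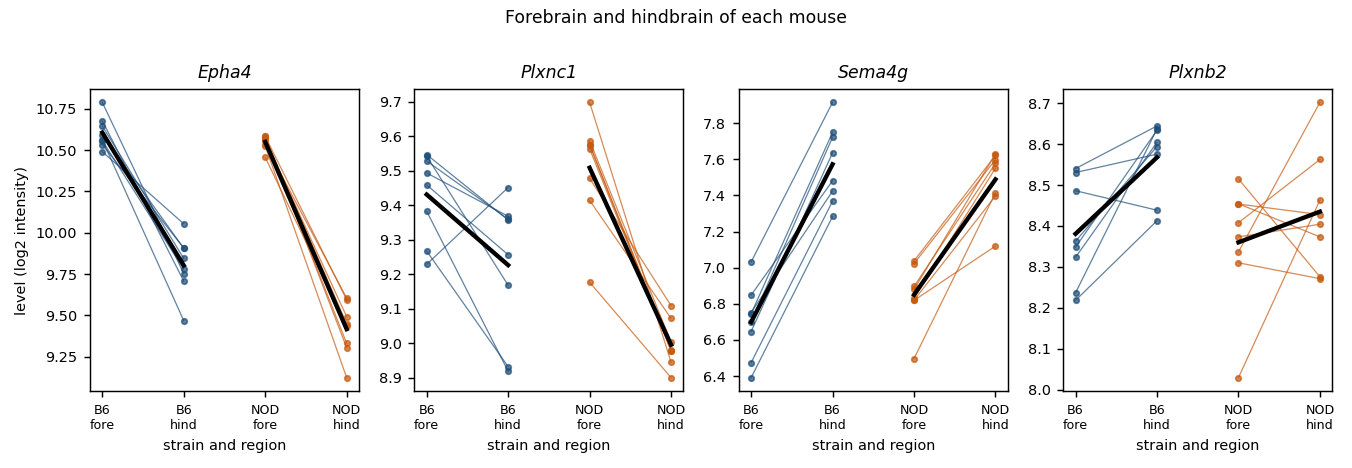
Level (log2 intensity, vertical axis) of the 4 genes with a called strain dependence in forebrain and hindbrain of each mouse (thin lines, blue for B6 and orange for NOD, 8 mice each), with group means in black. The mean difference of Epha4, hindbrain minus forebrain, is -0.80 in B6 and -1.13 in NOD.

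Clozapine, an antipsychotic that blocks dopamine and serotonin receptors among others, was compared with vehicle over both strains. Sema5b was the 1 member called of 50, against 2.92% of all transcripts. That background was 0.0530% (15 transcripts) in the mixed model and 0.0424% (12 transcripts) with 1 mean per mouse. In whole brain, with 8 mice per treatment, Sema5b averaged 7.05 ± 0.18 (SD, range 6.82 to 7.40) after clozapine and 6.79 ± 0.18 (6.57 to 7.09) after vehicle. In forebrain it averaged 7.11 ± 0.31 (SD, range 6.57 to 7.49) after clozapine and 7.003 ± 0.20 (6.61 to 7.25) after vehicle, and in hindbrain 6.84 ± 0.31 (SD, range 6.37 to 7.27) after clozapine and 6.84 ± 0.21 (6.58 to 7.26) after vehicle, so the treatments overlapped in every region and the hindbrain means were equal to 2 decimals. The fitted difference over the 3 regions was 0.19 (SE 0.05, FDR 0.026). It was not called with 1 mean per mouse (0.12, FDR 0.21), in the mixed model per transcript (0.19, FDR 0.12), with the hour of kill as a covariate (0.18, FDR 0.093) or without the 4 hindbrain samples with cerebellar markers (0.16, FDR 0.074). When each mouse was left out in turn, the call was lost without any 1 of BB685, BB687, BB708, DD656, DD658, DD676 and DD678 (0.11 to 0.19, FDR 0.062 to 0.32). The count of called members was then 0 to 4, the highest without DD675, at 3 without BB686, BB703 or DD657 and at 2 without BB702 or BB707.

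The fitted clozapine differences of the other 49 members lay between -0.11 (Plxna3) and 0.11 (Plxnd1), with a median over all 50 of -0.01, against -0.01 over all transcripts. Of the 49 partner genes 2 were called, Nrp1 (-0.23), the co-receptor of class 3 semaphorins and of vascular endothelial growth factor, and Kdr (-0.23), a receptor of that factor, in the fit with the 2.92% background. Endothelial and mural markers, a list that also holds Kdr, lay mostly on the same side: 4 of 11 were called lower and 10 were below 0, with a median of -0.08 and a lowest value of -0.27. Their part in the values of Nrp1 was not tested. Over the 3 factors of the design, 6 members were called in no comparison: Efna2, Efna4, Epha2, Epha10, Plxna1 and Sema4b.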

How the data were processed

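Per the labels and the study's methods, RNA of 48 samples (16 mice, 3 dissections) was hybridised to Affymetrix mouse gene 1.1ST and 1.0ST arrays. The authors deposited log2 intensities, 1 per transcript cluster (28310 in all), made by robust multi-array averaging in Expression Console 1.1. This step draws the distributions of the arrays together, so a shift common to all transcripts cannot be read from the values. The array medians over the clusters still ran from 6.28 to 6.61 on the 1.1ST arrays and from 8.14 to 8.23 on the 1.0ST arrays. Probes were designed on the B6 genome, and bases that differ in NOD were not examined here. The number of arrays, not a read depth, limits the precision. The array batch and the hemisphere of each sample were not used here.

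The limma fit on the 1.1ST values had 6 strain-by-region means, treatment, 5 surrogate variables of 1000 transcripts each and the mouse as a random block. Tests were two-sided, and calls had an FDR below 0.05 by the study's formula over all 28310 clusters. Regions of a mouse are paired by the animal. Residuals of the same mouse correlated at 0.0405 between forebrain and whole brain, 0.0745 between forebrain and hindbrain, and -0.0188 between hindbrain and whole brain, and the consensus correlation within mice was 0.0310. Genes were named where both arrays' tables gave the same single symbol. Members, lists and tests were chosen with earlier results of these data known.

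Values are given in full for the 8 called members with the largest mean paired hindbrain difference in each direction among those with 1 sign in at least 14 of 16 mice, the 5 largest called differences of whole brain, the 6 largest strain differences in forebrain, and all called for strain dependence or clozapine. The binding pairs, promoters and partner genes described beside them were picked with their values known. Alternatives were the 1.0ST arrays, no or unrefined surrogate variables, a fixed or no replicate block, Benjamini-Hochberg adjustment, a filter on means above 5, transcripts with 1 symbol, median centring, the hour of kill, vehicle-treated mice alone, each region alone, 1 mean per mouse, a linear mixed model per transcript, the second cluster of a gene, and samples or mice left out. Leaving out the 4 hindbrain or 2 whole brain samples was chosen after seeing the data. The scripts were tested on simulated data. R 4.3.3 with limma 3.58.1, statmod 1.5.0, lme4 1.1.37 and lmerTest 3.1.3, and Python 3.11.15 with pandas 2.3.3, were used.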

Additional observations from a re-analysis of the deposited data

Results flagged for a closer look

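Among 120 groups of 8 samples (20 named members, 3 regions, both strains), 17 held a highest or lowest sample whose gap to its neighbour exceeded 0.526 of the range. For 1 group taken alone, chance gives this about 1 time in 20. The groups share the same arrays and are not independent, so the 17 are not weighed against that rate. Whole brain of NOD mouse DD656 was the extreme 8 times, each time on the hindbrain side of its group: it was highest for Plxnb3 (8.73, the other 7 at 7.98 to 8.25), Sema4g (7.72), Sema6d (10.66) and Sema5a (9.89), and lowest for Plxnd1 (7.34), Efnb2 (7.73), Ephb6 (8.20) and Epha4 (10.04). Whole brain of B6 mouse BB707 was highest for Sema4g (7.53) and lowest for Sema3a (7.54), and its forebrain was lowest for Epha7 (9.61). B6 mouse BB703 had the highest forebrain Sema6d (10.14) and the lowest forebrain Ephb6 (8.31, the other 7 at 8.92 to 9.04), and BB686 the lowest forebrain Ephb1 (7.31). In NOD, DD676 had the lowest forebrain Sema4g (6.50) and Plxnb2 (8.03), and DD658 the lowest hindbrain Sema4g (7.12).

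The hindbrain minus forebrain difference was lower in NOD than in B6 by the interaction test for Epha4 (-0.30), Plxnc1 (-0.31), Sema4g (-0.25) and Plxnb2 (-0.18).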

How the results depend on the processing

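Counts of called members moved by over 1.5 times as follows. The calls over all transcripts moved between the settings too, so these counts are not read as results about the members. On the 1.0ST arrays 7 were higher in hindbrain and 5 differed between whole brain and forebrain. With a mean above 5 these were 7 and 2, with 2 for clozapine, and with 1 gene symbol 8 and 7. Unrefined surrogate variables gave 33 for whole brain and 7 for clozapine, where 874 of all 28310 transcripts were called higher and 1412 lower after clozapine. Without surrogate variables the strain counts were 4 (forebrain), 3 (whole brain) and 6 (hindbrain), with 1 for strain dependence and 0 for clozapine. Vehicle-treated mice alone gave 6 in whole brain, 6 in hindbrain and 1 for strain dependence. Without the whole brain sample of DD656 the strain count in whole brain was 6 and strain dependence 6, and without the whole brain samples of DD656 and BB707 strain dependence was 6. Of all 28310 transcripts, 483 were then called higher and 495 lower for strain dependence in the first case. In the second case 452 were higher and 513 lower, against 647 in either direction with all samples. With a mean above 5 strain dependence was also 6, where 679 of 19458 transcripts were called higher and 575 lower. For clozapine the count was 2 with no replicate block or with second clusters, and 0 with the hour of kill, 1 mean per mouse, forebrain, hindbrain or whole brain alone, the mixed model, or without the 4 hindbrain samples with cerebellar markers. Sema5b reversed in hindbrain alone (-0.0086). The cause was not tested. Leaving out each mouse gave 9 to 19 higher and 20 to 24 lower in hindbrain, 4 to 23 for whole brain, 10 to 16, 5 to 18 and 8 to 14 between strains in forebrain, whole brain and hindbrain, 0 to 4 for strain dependence, 0 to 0 for that of whole brain, and 0 to 4 for clozapine. With the mouse as a fixed replicate block, 16 members were higher and 22 lower in hindbrain, 15 differed in whole brain and 3 in strain dependence. It ended the calls of Plxnd1 in whole brain and of Plxnb2 in strain dependence and changed no other call among the named values. Levels below the median of all transcripts limit what can be seen for Efna1, Efna4, Epha1, Epha2, Epha8, Ephb4, Sema3b and Sema3g.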
